A study of Mus musculus with 39 samples.

Results

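Messenger RNA of 7 thermogenic and brown fat genes, Ucp1, Cidea, Dio2, Elovl3, Prdm16, Ppargc1a and Zic1, was followed in mouse epididymal adipose tissue under a low fat diet, a high fat diet and a high fat diet with a plant formulation. They are 7 of the 29411 gene names on the array and have 10 probes. The genes were taken by name, and the brightest probe of each gene was used, with the other probes of Ucp1, Ppargc1a and Zic1 as a check.

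Brown adipocytes burn fat to make heat. Noradrenaline from sympathetic nerves acts on their beta-adrenergic receptors, cAMP rises, and fatty acids set free from the lipid droplet open Ucp1, a carrier in the inner mitochondrial membrane that lets protons back in without making ATP. Cells with this programme, called beige, also appear within white depots, most readily under the skin and least readily in the epididymal depot, which mainly stores fat.

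The mice were C57BL/6J, put on their diets after weaning, and the 39 arrays were 11 of the low fat diet with 10% of calories from fat (LFC), 10 of the high fat, high sucrose diet with 60% of calories from fat (HFC), and 6 each of HFC with 5, 20 or 75 µg of KAL-1 (HF5, HF20 and HF75). KAL-1 is an aqueous botanical formulation. LFC arrays covered days 1, 6, 10 and 14 and weeks 0, 3, 6, 9, 12, 15 and 18. HFC lacked day 1, and the KAL-1 arrays began at week 3. Days 1 to 14 and week 0 are called early here, and weeks 3 to 18 late. The study's methods, which describe its liver arrays, count weeks from day 14 and join day 14 with week 0. There was 1 array for each diet and time point, and the labels do not say how many animals gave its RNA. Time points stood in for replicates. SDs, and errors of late against early within a diet, therefore include change over time. Errors of differences between diets include only the change that the diets did not share, since arrays of the same time point were compared. No group measured a brown fat depot, cold or an adrenergic drug.

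The probes of a gene do not read the same stretch of its message. The first 30 of 60 bases of the pairs for Ucp1 and Ppargc1a are shown because their readings are set side by side in the results.
Ucp1, brighter probe: ggaacgtcatcatgtttgtgtgctttgaac
Ucp1, dimmer probe: gctcaaactagtgggaaggaaaaattagtc
Ppargc1a, brighter probe: ccccttcaaatggcagcatttccatgaaga
Ppargc1a, dimmer probe: attcatttatcaccagcatattgtgttctg
Over all 60 bases, G and C made up 45.0% of the brighter and 35.0% of the dimmer Ucp1 probe, against 38.3% and 41.7% for Ppargc1a.

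Adrenergic signals reach these genes partly through factors that bind the cAMP response element, so the promoters of the 3 members with such letters are shown. The sequences are RefSeq's, from 250 bases before the start of the gene to 50 bases after it on GRCm38.p6, and 5 of the 7 members had an entry. Capitals mark TGACGTCA, its shorter form TGACG, which overlaps it, and the nuclear receptor letters AGGTCA, searched on both strands.
Ucp1 (chr8:83290098-83290397, plus strand): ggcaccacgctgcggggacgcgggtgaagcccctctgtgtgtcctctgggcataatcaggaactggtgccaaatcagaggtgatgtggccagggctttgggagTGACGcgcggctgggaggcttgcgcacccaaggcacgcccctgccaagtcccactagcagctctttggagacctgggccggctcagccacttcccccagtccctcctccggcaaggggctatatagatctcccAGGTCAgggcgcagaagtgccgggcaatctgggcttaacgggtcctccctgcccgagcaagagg
Dio2 (chr12:90738989-90739288, minus strand): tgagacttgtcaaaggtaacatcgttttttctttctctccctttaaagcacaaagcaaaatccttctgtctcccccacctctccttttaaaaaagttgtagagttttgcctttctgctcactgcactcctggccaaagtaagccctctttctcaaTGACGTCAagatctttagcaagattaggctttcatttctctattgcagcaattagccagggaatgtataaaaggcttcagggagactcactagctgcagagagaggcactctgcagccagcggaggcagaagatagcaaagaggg
Ppargc1a (chr5:51567676-51567975, minus strand): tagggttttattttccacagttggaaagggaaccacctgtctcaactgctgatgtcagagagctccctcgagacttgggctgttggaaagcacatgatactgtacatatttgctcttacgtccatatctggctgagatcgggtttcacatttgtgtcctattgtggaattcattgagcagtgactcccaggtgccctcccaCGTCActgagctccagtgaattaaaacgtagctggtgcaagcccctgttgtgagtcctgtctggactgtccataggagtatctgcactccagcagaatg
Dio2 held TGACGTCA at position -95 from the start, letters found in 1.79% of 32851 promoters of this length. TGACG stood at position -147 of Ucp1 and, on the opposite strand, at position -49 of Ppargc1a, and 20.8% of promoters held it. AGGTCA was found in Ucp1 at position -14, and in 16.3% of promoters. Prdm16 and Zic1 held none of these letters.

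All values are the log2 of the scanner's processed signal minus the array's 75th percentile, called the normalised log2 signal, so that 0 is the level of a fairly bright probe and 1 unit is a change of 2-fold. A signal is called well above background where the scanner software found it so. LFC week 3 and HFC week 12 stood apart: 97.1% and 94.5% of their probes were well above background, against 53.7% to 79.6% on the 37 other arrays. On them 16431 and 10531 spots were marked as outliers, against 21 to 387 elsewhere. White adipocyte genes were present throughout, since 7 of 7 (Adipoq, Lep, Retn, Plin1, Cidec, Fabp4 and Lipe) were well above background on all 39 arrays.

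Depot genes went against the label on 4 arrays. Upk3b, a gene of the mesothelium that covers visceral fat, lay between -4.03 and 1.73 on the arrays other than the 4 of LFC, HFC, HF5 and HF75 at week 6, where it was not well above background. Wt1, a visceral gene, read -4.40 and -5.38 at LFC and HFC week 6 and was not well above background at HF5 and HF75 week 6, while HF20 week 6 read -1.40. Tbx15, a gene of subcutaneous and brown fat, read -0.52, -0.53, -1.46 and -0.97 on those 4 arrays, and was not well above background on HF20 week 6. Lhx8, which is known from brown fat, read -2.27, -2.70, -3.07 and -1.90 there. Of 4 visceral markers, with Tcf21 and Gata6, 3, 3, 1 and 1 were well above background on these arrays, and 4 of 4 on every other array. Values without week 6 are given beside the dose comparisons for Ucp1, Prdm16 and Cidea.

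**Figure D1:**
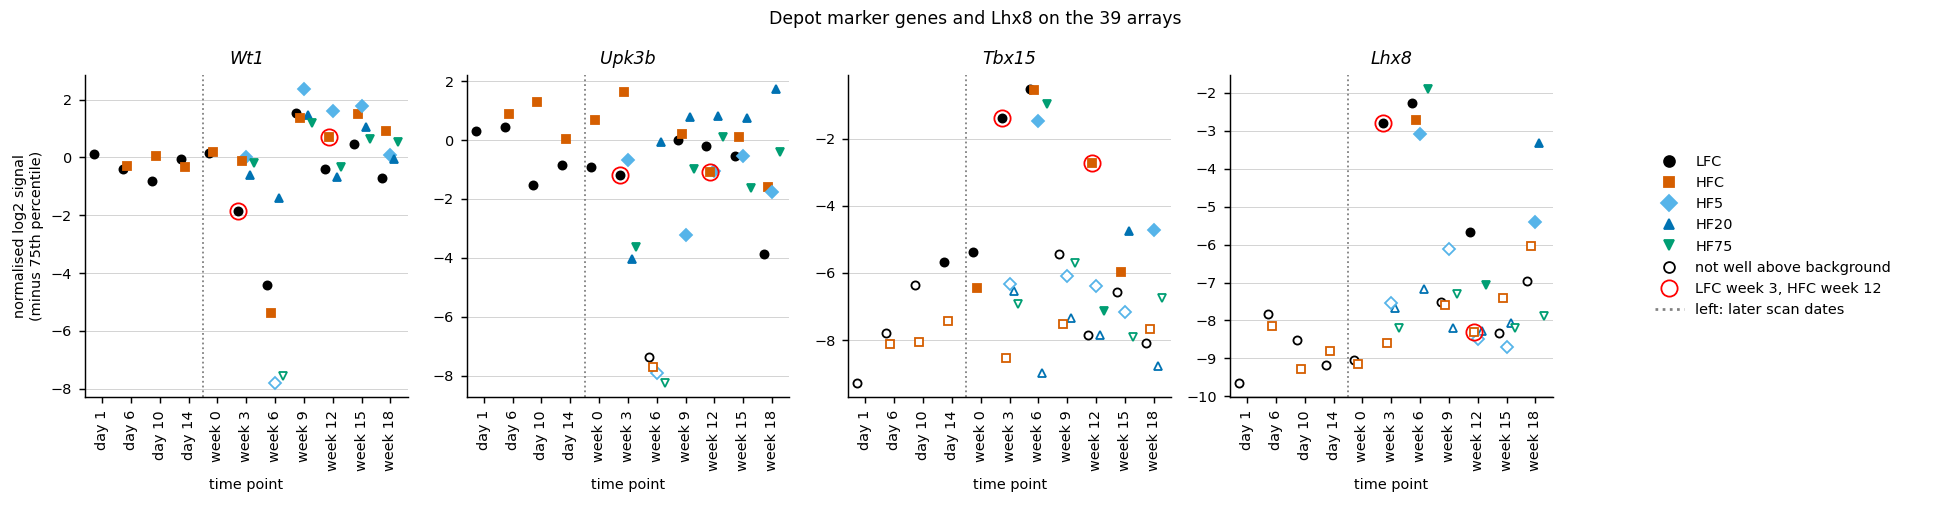
Normalised log2 signal of Wt1, Upk3b, Tbx15 and Lhx8 (vertical axis) at each time point (horizontal axis), 1 symbol per array, with open symbols not well above background and red rings on LFC week 3 and HFC week 12. Among the arrays without red rings, LFC, HFC, HF5 and HF75 at week 6 have the lowest Wt1 and Upk3b and the highest Tbx15, and HF20 does not share this.

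Ucp1, the uncoupling carrier itself, was well above background on 37 of 39 arrays, all but HF20 week 6 and HF20 week 18. Its normalised log2 signal ran from -7.23 to -0.46 with a median of -2.94. On the LFC arrays the lowest was -4.49 at day 1, the median -2.94 and the highest -1.22, shared by weeks 3 and 6. HFC arrays ran from -4.46 at week 18 through a median of -2.29 to -1.37 at week 6. LFC and HFC were alike at several time points: both were high at days 6 and 10 (-1.70 and -1.37 in LFC, -1.55 and -2.07 in HFC) and low at day 14 (-3.93 and -4.15), week 9 (-4.24 and -3.56) and week 18 (-4.35 and -4.46). At each of these the LFC and HFC arrays shared a scan date, so that time and scan date cannot be told apart. Over 10 time points the paired differences, HFC minus LFC, ran from -0.88 to 1.40. HF5 ran from -3.32 to -0.46 with a median of -2.66, and its week 6 array was the highest of all 39. HF75 ran from -6.01 at week 12 to -2.91 with a median of -3.19. HF20 read -2.78, -6.87, -3.71, -5.09, -3.57 and -7.23 at weeks 3, 6, 9, 12, 15 and 18.

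In order of the mean over weeks 3 to 18, Ucp1 was -2.43 ± 1.03 in HF5, -2.69 ± 1.18 in HFC, -2.83 ± 1.38 in LFC, -3.83 ± 1.28 in HF75 and -4.87 ± 1.85 in HF20 (SD, n = 6 each). Neighbours in this order, the closest means, differed by less than their SD. HF20 lay below HF5, HFC and LFC by more than the SD of either diet compared. This includes week 6, where the HF5, HFC and LFC arrays had markers of another depot and HF20 did not. HF20 was not well above background at weeks 6 and 18. Means without week 6 are not given here, and the paired difference of HF20 from HFC was then -1.52 (SE 0.60). These SDs do not use the pairing by week. The dimmer Ucp1 probe was well above background on 14 arrays. Over 37 arrays the pair of Ucp1 probes had r = 0.69, and over the 12 arrays where both were well above background r = 0.84.

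**Figure D2:**
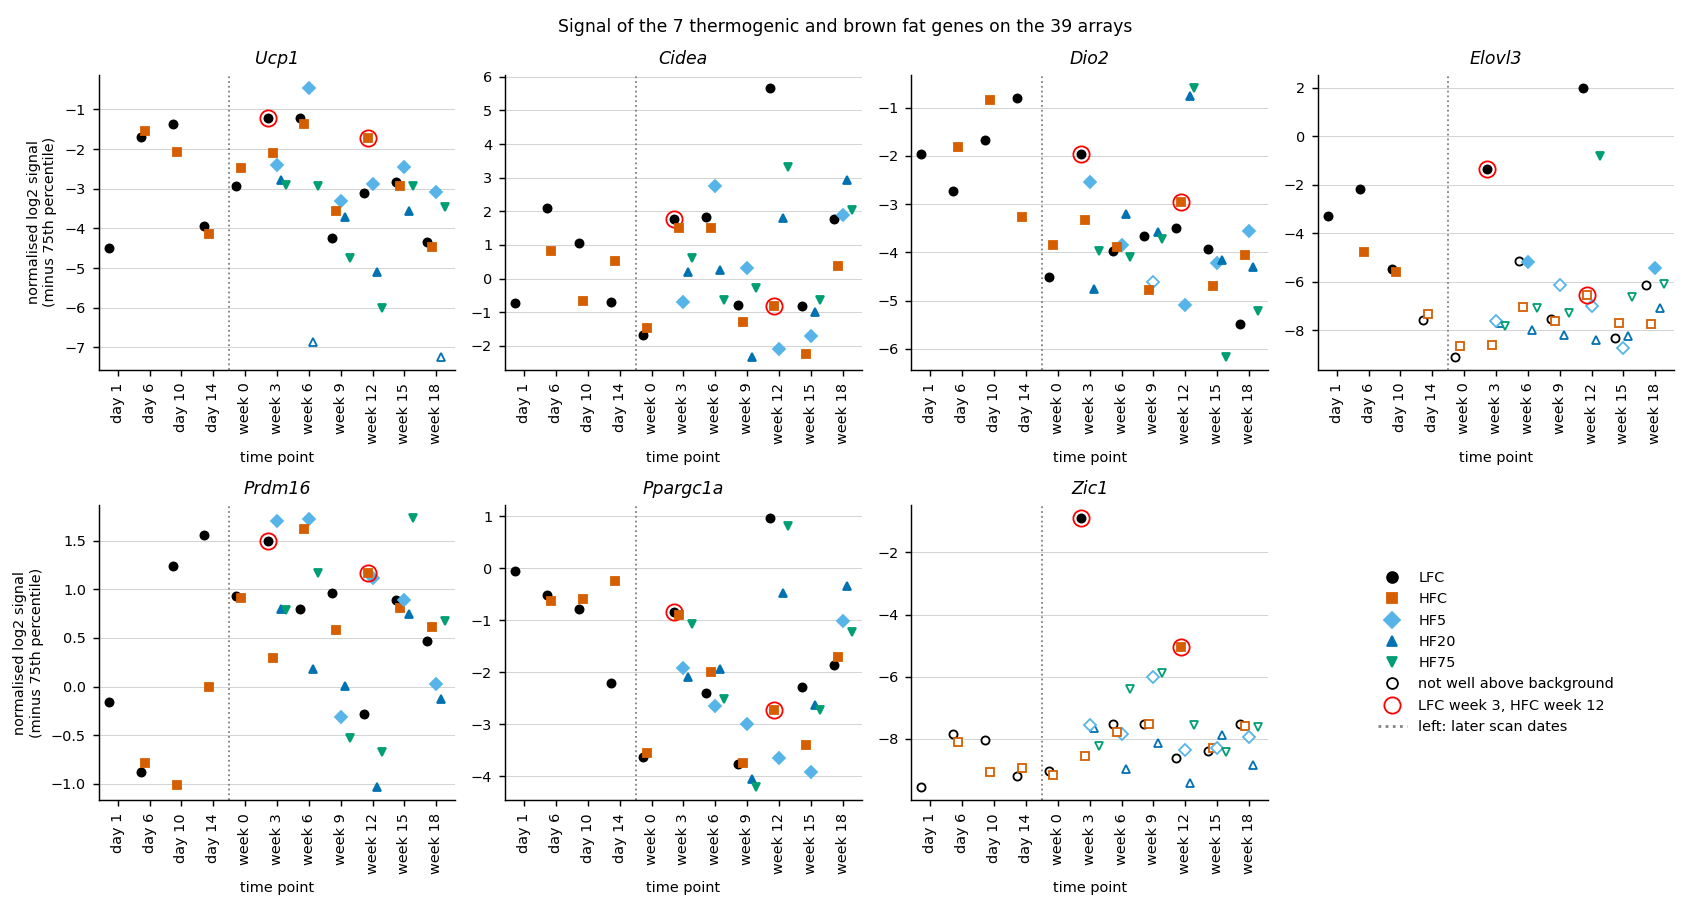
Normalised log2 signal (vertical axis) of each of the 7 genes at each time point (horizontal axis), 1 symbol per array in the colour and shape of its diet, open where not well above background, with red rings on LFC week 3 and HFC week 12. Arrays left of the dotted line were scanned on later dates than the rest. Cidea, Elovl3 and Ppargc1a peak on LFC week 12 and HF75 week 12, Ucp1 does not, and Zic1 is open on 37 of 39 arrays.

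Cidea, a lipid droplet protein that is abundant in brown fat, was well above background on all 39 arrays and varied most of the 5 genes that were measured on most arrays, with an SD of 1.75 over the 39. It ran from -2.32 at HF20 week 9 through a median of 0.25 to 5.67 at LFC week 12, where the probe was saturated, so that this reading is a lower limit and the SD and the LFC mean include it. The next highest were 3.32 at HF75 week 12, 2.93 at HF20 week 18 and 2.75 at HF5 week 6. Without LFC week 3 and HFC week 12 the medians were 0.18 in LFC and 0.37 in HFC, and the medians of HF5, HF20 and HF75 were -0.21, 0.23 and 0.18. Over weeks 3 to 18 the means in order were -0.16 ± 1.54 in HFC, 0.07 ± 1.95 in HF5, 0.31 ± 1.88 in HF20, 0.74 ± 1.62 in HF75 and 1.58 ± 2.38 in LFC (SD, n = 6 each). The ends of this order, HFC and LFC, lay apart by less than the SD of LFC but more than that of HFC.

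Elovl3, an enzyme that elongates fatty acids and is induced by cold in brown fat, was well above background on 10 of 39 arrays. These were LFC day 1 (-3.30), LFC day 6 (-2.19), HFC day 6 (-4.77), LFC day 10 (-5.46), HFC day 10 (-5.59), LFC week 3 (-1.34), HF5 week 6 (-5.19), LFC week 12 (1.99), HF75 week 12 (-0.82) and HF5 week 18 (-5.44). All 5 arrays of days 1 to 10 were among them and no HF20 array was. It was highest on the same array as Cidea, and HF75 week 12 was the second highest.

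LFC week 12 and HF75 week 12 were also the highest for Ppargc1a (0.96 and 0.81), the coactivator that drives mitochondrial genes. Ucp1 was -3.11 and -6.01 on these 2 arrays, so that the members did not peak together. Cox8b, a subunit of cytochrome oxidase found in brown fat and muscle, read 4.80 and 2.04 there. The summed level of 10 skeletal muscle markers, in units of the array's 75th percentile, was 1.34 at LFC week 12, the lowest of 39, and 24.9 at HF75 week 12, the highest, and its part in the HF75 value was not tested.

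Dio2, the deiodinase that makes active thyroid hormone inside the cell, was well above background on 38 arrays and ran from -6.16 at HF75 week 15 to -0.59 at HF75 week 12, with a median of -3.84. Its highest readings were HF75 week 12, HF20 week 12 (-0.76), LFC day 14 (-0.79) and HFC day 10 (-0.85). Early arrays had a median of -1.96 and late arrays -3.94, and the groups overlapped. The diets were close over weeks 3 to 18, with means of -3.98 ± 0.89 in HF5, -3.96 ± 1.89 in HF75, -3.94 ± 0.72 in HFC, -3.75 ± 1.13 in LFC and -3.46 ± 1.43 in HF20 (SD, n = 6 each).

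Ppargc1a ran from -4.20 at HF75 week 9 to 0.96, with a median of -2.04. On days 1, 6 and 10 the 5 arrays of LFC and HFC read -0.05, -0.51, -0.78, -0.62 and -0.59, and the same diets read -2.20 and -0.25 at day 14 and -3.62 and -3.55 at week 0. Over weeks 3 to 18 the means were -2.69 ± 1.09 in HF5, -2.41 ± 1.08 in HFC, -1.92 ± 1.39 in HF20, -1.86 ± 1.74 in LFC and -1.82 ± 1.72 in HF75 (SD, n = 6, but 5 in LFC). No 2 diets were apart by more than the SD of either. The dimmer Ppargc1a probe was well above background on 36 arrays and had r = 0.91 with the brighter one over 37 arrays.

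Prdm16, the zinc finger factor that sets the brown and beige programme, was well above background on all 39 arrays and varied least of the 5, with an SD of 0.80, from -1.03 at HF20 week 12 to 1.73 at HF75 week 15 with a median of 0.71. Low readings came from HFC day 10 (-1.01), LFC day 6 (-0.88) and HFC day 6 (-0.78). The LFC week 3 spots of Prdm16 and Ppargc1a carried outlier marks and were left out. Zic1, a factor that marks classical brown fat and not beige cells, was well above background only on LFC week 3 and HFC week 12, with either of its 2 probes, and on none of the other 37 arrays.

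The first question was whether the high fat diet changed these genes. For HFC against LFC 29698 probes passed the filter on dim probes, with 5 of the 7 members among them, since Elovl3 and Zic1 were too dim. No member passed the test, and 0% of all probes did (limma, adjusted p under 0.05), while 0 of 5 members and 3.05% of probes had an unadjusted p under 0.05. Cidea was lower in HFC by 1.20 (SE 0.58, adjusted p = 0.998), at 8 of 10 time points, with paired differences from 1.23 at day 14 down to -6.48 at week 12, where the LFC reading was saturated. Without week 12 the difference was -0.61 (SE 0.30), and without LFC week 3 and HFC week 12 it was -0.66 (SE 0.32). Ucp1 differed by 0.05 (SE 0.22), Dio2 by -0.13 (SE 0.36), Prdm16 by -0.20 (SE 0.35) and Ppargc1a by -0.24 (SE 0.45), the last 2 over 9 pairs. Each of these was smaller than its error, and Ppargc1a was at 0.19 (SE 0.29) without week 12. Markers of other cells read differently too, though none passed the test. The 6 epididymis genes were all lower in HFC (median -2.27), 3 with an unadjusted p under 0.05 in limma. Higher were 6 of 7 white adipocyte genes (median 0.5) and 4 of 4 macrophage genes (median 0.74). Of 8 skeletal muscle genes tested 7 were lower (median -0.21), against 0.03 for all probes. Their part in the Cidea value was not tested.

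The KAL-1 arrays were compared with HFC over weeks 3 to 18, where 32083 probes and the same 5 members were tested. No member passed for any dose, and the shares of all probes that passed were 0% for HF5, HF20, HF75 and the mean of the doses. At an unadjusted p under 0.05 the shares were 3.44%, 5.05%, 1.54% and 1.86% of probes, against 0, 2, 0 and 0 of 5 members. The 2 were Ucp1 and Prdm16 in HF20, both lower.

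Ucp1 was 2.19 lower on the log2 scale in HF20 than in HFC (SE 0.65, limma p = 0.00262, adjusted p = 0.772). The HF20 array was below the HFC array at 6 of 6 weeks, with paired differences from -5.50 at week 6 to -0.14 at week 9, but the diets overlapped, since HFC week 18 read -4.46 and HF20 week 3 read -2.78. At weeks 6 and 18 the HF20 signal was not well above background, so the size of the differences there is uncertain. The HFC array at week 6 is one of the 4 with markers of another depot. Without week 6 the difference was -1.52 (SE 0.60), and without LFC week 3 and HFC week 12 it was -1.84 (SE 0.68). With normexp background correction, which treats dim probes in another way, it was -1.13 (SE 0.49). The dimmer Ucp1 probe gave -1.24 (SE 0.52), with no HF20 array well above background. HF75 was lower than HFC by 1.14 (SE 0.65, adjusted p = 1.0) at 4 of 6 weeks, but the dimmer probe gave -0.07 (SE 0.52), and without week 12, where HFC stood apart, the brighter one gave -0.51 (SE 0.69). HF5 was higher by 0.26 (SE 0.65) at 4 of 6, and by 0.13 (SE 0.60) without week 6. The 3 dose comparisons share the same 6 HFC arrays.

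**Figure D3:**
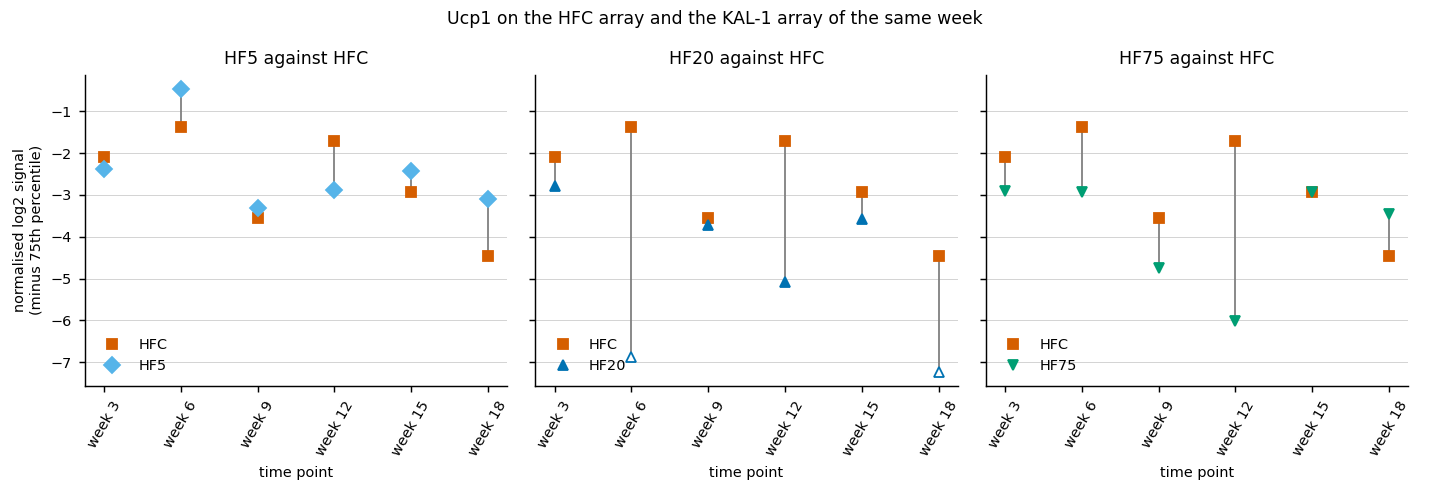
Normalised log2 signal of Ucp1 (vertical axis) at weeks 3 to 18 (horizontal axis) on the HFC array and the HF5, HF20 or HF75 array of the same week, joined by a line, with open symbols not well above background. HF20 lies below HFC at all 6 weeks, by the most at week 6.

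Prdm16 was 0.75 lower in HF20 (SE 0.36, limma p = 0.0487, adjusted p = 0.772), at 5 of 6 weeks. Without week 6 it was -0.61 (SE 0.42, p = 0.163 by limma) and without week 12 it was -0.46 (SE 0.36). Its mean over weeks 3 to 18 was 0.10 ± 0.67 in HF20, 0.53 ± 0.95 in HF75, 0.57 ± 0.51 in LFC, 0.85 ± 0.48 in HFC and 0.86 ± 0.84 in HF5 (SD, n = 6, but 5 in LFC). Cidea, Dio2 and Ppargc1a differed from HFC by 0.47, 0.49 and 0.49 in HF20 (SE 0.84, 0.62 and 0.55), all within their errors. In HF75 they differed by 0.89, -0.02 and 0.59 (SE 0.84, 0.62 and 0.55), and in HF5 by 0.23, -0.03 and -0.27 with the same SEs. Without week 12 the HF20 values were 0.04, 0.14 and 0.14 and the HF75 values 0.25, -0.49 and 0.00. Without week 6 Cidea in HF75 was at 1.50 (SE 0.88). Markers of other cells also read differently on HF20 and HFC arrays, though no gene of these lists passed the test. The 6 epididymis genes were all higher in HF20, with a median of 2.07, and 6 of 7 white adipocyte genes were higher, with a median of 1.44. The 4 macrophage genes were all higher (median 0.48) and 7 of 10 skeletal muscle genes lower (median -0.36), against -0.07 for all probes. An unadjusted p under 0.05 in limma was found for 1 epididymis and 1 white adipocyte gene. Values of these lists without week 6 or week 12 are not given here. Their part in the Ucp1 value was not tested, and in whole tissue fewer cells of a type and less RNA per cell cannot be told apart.

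**Figure D4:**
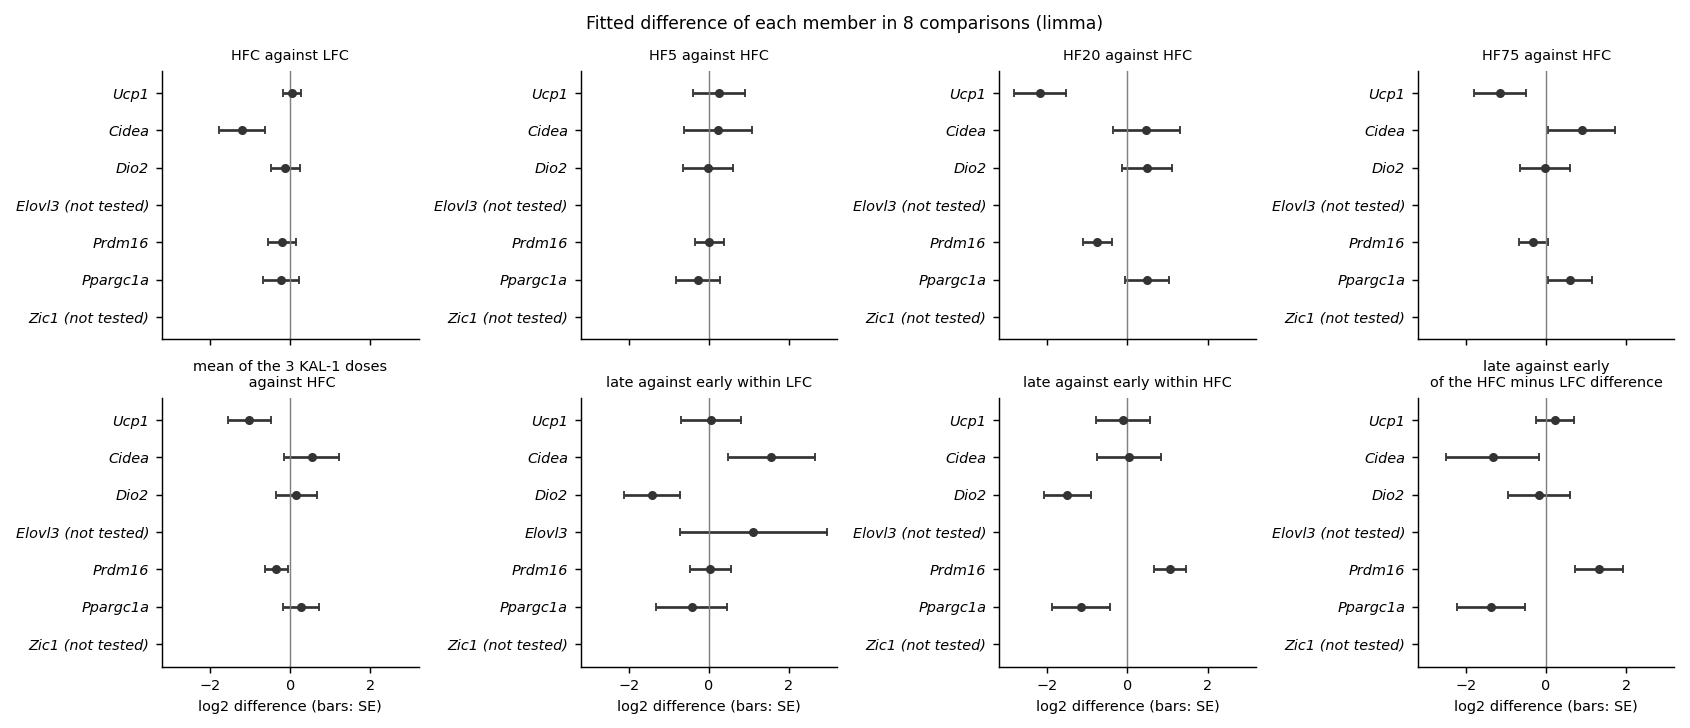
Fitted log2 difference (horizontal axis, bars are the SE) of each member (vertical axis) in the 8 comparisons, with members too dim for the test marked as not tested. The Ucp1 difference for HF20 against HFC, at -2.19, includes 2 readings that were not well above background, and was -1.13 with normexp background correction.

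Time was compared within each diet, late against early. In LFC 145 of 30958 probes passed (0.468%, with 81 higher and 64 lower late), and 0 of the 6 members tested did, while 0 members and 5.49% of probes had an unadjusted p under 0.05. In HFC 0% of 31136 probes passed, and 16.6% had an unadjusted p under 0.05, as did 2 of 5 members, Dio2 and Prdm16. Dio2 was lower late in both diets, with differences of -1.42 in LFC (SE 0.69, adjusted p = 0.926) and -1.50 in HFC (SE 0.59, adjusted p = 0.267). With normexp background correction these were -0.04 (SE 0.63) and -0.86 (SE 0.56). Prdm16 was 1.06 higher late in HFC (SE 0.41, adjusted p = 0.261) and 0.03 higher in LFC (SE 0.51). For Ppargc1a the HFC difference was -1.16 (SE 0.73) and the LFC difference -0.43 (SE 0.89), or -1.14 (SE 0.74) without week 12. Ucp1 differed by 0.06 in LFC (SE 0.75) and -0.12 in HFC (SE 0.67), and Cidea by 1.56 in LFC (SE 1.08) and 0.04 in HFC (SE 0.79). Without week 12, the saturated array, Cidea in LFC was at 0.75 (SE 0.83). Elovl3, tested only in LFC, differed by 1.11 (SE 1.83), by 0.49 (SE 1.93) without week 3 and by -0.17 (SE 1.50) without week 12. It was well above background on 5 of 11 LFC arrays, the least the filter allows, and LFC week 3 was one of them.

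Scan date ran with these periods, since days 1 to 14 were scanned later than all other arrays and week 0 is the only early time point scanned in the period of the late ones. Against week 0 alone, 1 early array per diet that is assumed to vary like the others, Dio2 late was at 0.75 in LFC (SE 1.12) and -0.10 in HFC (SE 0.74). Ppargc1a was at 1.76 in LFC (SE 1.52) and 1.14 in HFC (SE 1.01), Prdm16 at -0.06 in HFC (SE 0.57), and Cidea at 3.26 in LFC (SE 2.02). The signs for Dio2 in LFC and for Ppargc1a in both diets were thus opposite to those against all early arrays, Prdm16 in HFC was near 0, and scan period and age cannot be told apart. Day 14 and week 0, which the study joins for its liver arrays, read -0.79 and -4.50 for Dio2 in LFC, and -3.26 and -3.84 in HFC.

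Whether the effect of the high fat diet itself changed with time was tested on the paired differences of the diets, late against early. Of 29698 probes 0% passed and 5.26% had an unadjusted p under 0.05, with 0 of 5 members in both counts. Prdm16 differed by 1.32 (SE 0.61, adjusted p = 0.833), Ppargc1a by -1.38 (SE 0.85, adjusted p = 0.837), Cidea by -1.33 (SE 1.16), Ucp1 by 0.22 (SE 0.47) and Dio2 by -0.17 (SE 0.77). Without week 12 Ppargc1a was at -0.67 (SE 0.57) and Cidea at -0.39 (SE 0.62).

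The wider thermogenic programme was followed in 53 other genes in 5 lists, of regulators, adrenergic receptors and secreted factors, mitochondria and fuel supply, creatine and calcium cycling, and beige adipocytes. None passed the test in any of the 8 comparisons. For HFC against LFC 49 were tested, 26 higher and 23 lower, with a median of 0.00 against 0.03 for all probes. The 3 with the smallest p were Ebf2, a factor of brown precursor cells, at 0.62 (SE 0.24), Fgf21, a hormone that raises heat production, at -1.15 (SE 0.49), and Adrb1, a beta-adrenergic receptor, at 0.47 (SE 0.29), each with an adjusted p of 0.998. For the mean of the doses 30 of 52 were higher and 22 lower, with a median of 0.08 against -0.03. Tmem26, a surface marker of beige cells, was at -1.10 (SE 0.56, and -0.56 without week 3), Pparg, the master factor of adipocytes, at 0.53 (SE 0.32) and Bmp7, a signal for brown precursors, at -0.57 (SE 0.43), each with an adjusted p of 1.0.

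Of the 6 beige adipocyte genes 5 were lower in HF20 than in HFC, with a median of -0.29 against -0.07 for all probes, of which 44.2% were higher. The 3 subcutaneous depot genes tested were also lower, with a median of -1.87, and their part was not tested. The HFC array at week 6 is one of those with markers of another depot, and HF20 week 6 is not. Values of these genes without week 6 are not given here. Beige adipocyte genes with an unadjusted p under 0.05, named after their values were seen, were Tmem26 at -1.55 (SE 0.69), Tnfrsf9 at -1.63 (SE 0.77) and Klhl13 at 0.69 (SE 0.33). Each had an adjusted p of 0.772 in limma, where 5.05% of all probes had an unadjusted p under 0.05. Tmem26 was well above background on 21 of 39 arrays.

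Late against early in HFC, 50 of the 53 genes were tested, 19 higher and 31 lower, with a median of -0.26 against 0.04 for all probes. In LFC 15 of 49 were higher and 34 lower, with a median of -0.25 against -0.09. The list medians in HFC were 0.12 for regulators and -0.81 for adrenergic receptors and secreted factors. They were 0.29 for creatine and calcium cycling and 0.15 for beige adipocytes. The 17 genes of mitochondria and fuel supply had the lowest median, -1.13 in HFC, with 14 lower and 3 higher. Of these 17 genes 5 (Gk, Slc25a20, Ucp3, Slc27a2 and Pank1, all lower) had an unadjusted p under 0.05, where 16.6% of all probes did. In LFC the median of 16 was -0.42, with 12 lower, against -0.09. Among the genes with the smallest p in HFC were Gk, which readies glycerol for triglyceride synthesis, at -1.36 (SE 0.39, adjusted p = 0.224), and Slc25a20, which carries acylcarnitines into mitochondria, at -1.46 (SE 0.43, adjusted p = 0.229). In LFC the 3 smallest were those of Kcnk3, a potassium channel of brown fat, at -1.49 (SE 0.78), Tnfrsf9, a beige marker, at 1.81 (SE 1.05), and Ppargc1b, a relative of Ppargc1a, at -1.24 (SE 0.74), each with an adjusted p of 0.93. Other cell markers moved with them in HFC: the median of 7 white adipocyte genes was -1.35 and that of 9 skeletal muscle genes 0.89. Their part was not tested. Against week 0 alone, in 1 scan period, Gk was at -0.34 (SE 0.59) and Slc25a20 at -0.46 (SE 0.71) in HFC, and Kcnk3 at 0.23 (SE 1.35) in LFC.

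Among the members, Cidea and Ppargc1a were the pair that varied most alike, with r = 0.73 and rho = 0.69 over the 37 arrays without LFC week 3 and HFC week 12. After the mean of each time point was taken off, r was 0.77. Without LFC week 12, where Cidea was saturated, and HF75 week 12, r was 0.64. Dio2 and Ppargc1a had r = 0.53, and 0.30 within time points. Ucp1 followed neither, with r = -0.06 for Cidea, -0.08 for Dio2 and -0.15 for Ppargc1a, and it had r = 0.36 with Prdm16, whose r with Ppargc1a was -0.48. These are descriptions over arrays that share time points, slides and scan dates. They include the week 6 arrays with markers of another depot, and HF20 weeks 6 and 18, where Ucp1 was not well above background. Adipoq, an adipocyte hormone, had r = 0.57 with Ppargc1a, 0.51 with Cidea, -0.20 with Ucp1 and -0.52 with Prdm16.

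**Figure D5:**
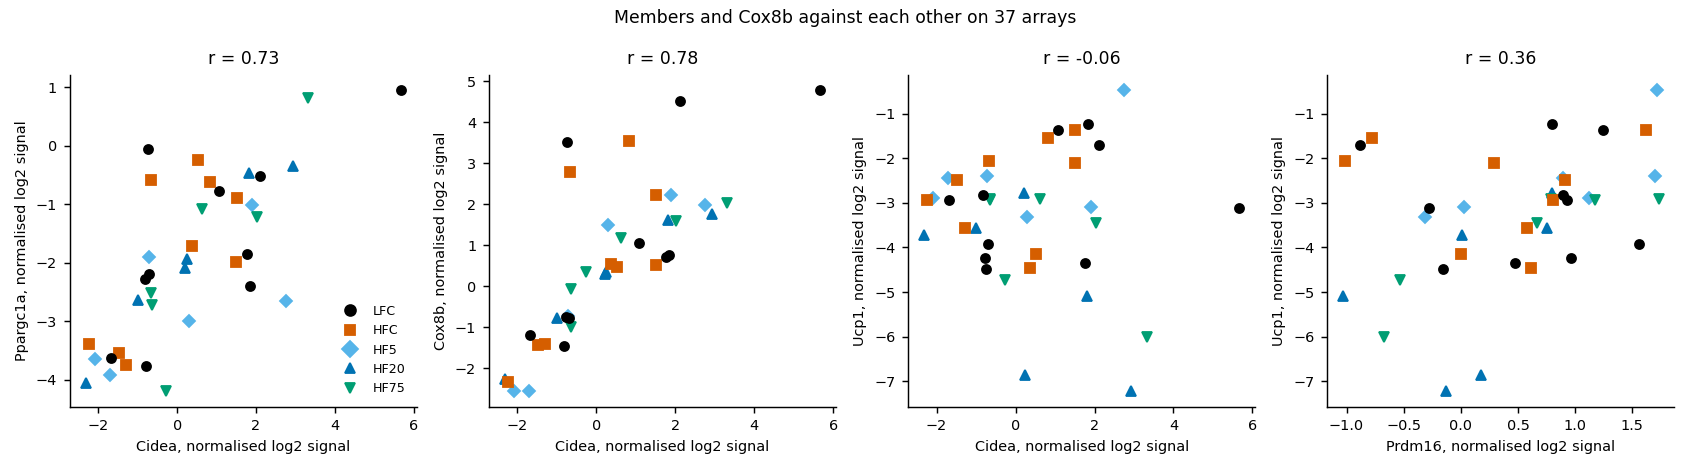
Normalised log2 signal of Cidea against Ppargc1a, Cox8b and Ucp1, and of Prdm16 against Ucp1, 1 symbol per array for 37 arrays in the colour and shape of the diet. Cidea rises along Ppargc1a (r = 0.73) and Cox8b (r = 0.78) and not along Ucp1 (r = -0.06).

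The genes on the array whose signal was most like each member were found over the same 37 arrays among 20251 gene names. Cidea was most like Fn3k (r = 0.84), Myh14 (0.82), Ddo, Slc36a2 and Cox8b (0.78 each), and without LFC week 12 and HF75 week 12 these had r from 0.71 to 0.79. Ppargc1a was most like Rad9b and Clmn (0.92 each), Cldn22 (0.91), Pde4dip and Rassf6 (0.90 each), with r from 0.87 to 0.92 without the same 2 arrays. For Prdm16 they were Notch3 (0.91), Akap6 (0.89), St6galnac3, Amigo2 and Dll1 (0.87 each), and for Dio2 Fgfr2 (0.74), Cenpp (0.71), Anln, Hmgb3 and Gm16380 (0.70 each). Ucp1 had the lowest values, with LOC677308 (0.70), LOC100047175 (0.67), Ifi44 (0.66), Fam38b (0.64) and Cenpi (0.63), and without HF20 weeks 6 and 18 these had r from 0.47 to 0.56. The Spearman correlations of these 25 pairs ran from 0.41 to 0.93. After the mean of each time point was taken off, r ran from 0.38 to 0.64 for the genes most like Dio2. For those of Prdm16 it ran from 0.79 to 0.88, of Cidea 0.74 to 0.87, of Ppargc1a 0.80 to 0.88 and of Ucp1 0.58 to 0.75.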

How the data were processed

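RNA was labelled with Cy3 and hybridised to one-colour Agilent arrays. Per the file headers, the deposited intensity values (processed, mean and background signals) came from Feature Extraction 10.5.1.1, while the submitters' processing notes name version 9.1, with background subtracted within each array and none of the arrays scaled to each other. The authors' deposited table, made in GeneSpring GX, holds log2 differences, each diet minus LFC per time point. Here it served as an alternative, and r with the scanner files was 0.992 or more.

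Each array's 75th percentile was subtracted from log2 of the processed signal, outlier spots were left out, and spots of a probe were averaged. Probes well above background on 10 of 20 arrays (HFC against LFC), 6 of 30 (doses), 5 of 11 (LFC) or 4 of 10 (HFC) were tested with limma 3.58.1 in R 4.3.3, two-sided, with time point as a block between diets and Benjamini-Hochberg adjustment over all probes tested at a threshold of 0.05. The number of arrays limits the precision. The script was tested on simulated data. Members and lists were chosen with earlier results of these data known. Named pathway genes are the 3 smallest p per comparison, of which 1 is not reported here. Most like genes are the 5 highest r among gene names well above background on 20 arrays. Of 101 list genes 99 matched RefSeq by accession, 3 under newer names (Gk, Alpl and Adgre1). Alternatives were other background correction, scaling, filters, weights, arrays, blocks and probes. The study's t-test between repeats could not be made, so a paired t-test over time points, called the methods' t-test, took its place. Python 3.11.15, pandas 2.3.3, numpy 2.4.6, scipy 1.17.1 and matplotlib 3.10.9 were used.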

Additional observations from a re-analysis of the deposited data

Results flagged for a closer look

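Ucp1 on the HF5 array of week 6 stood apart from the other HF5 arrays. It read -0.46, the next highest was -2.39 at week 3, and the gap was 0.675 of the range of the 6 arrays, above the limit of 0.625 for 6 values. Of 22 groups of a member and a diet examined in this way 1 was marked, and chance marks about 1 in 20. This array is one of the 4 at week 6 with low visceral and high subcutaneous marker signal. Ucp1, Cidea and Dio2 in LFC, with 11 arrays each, had no such limit and were not examined.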

How the results depend on the processing

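No member passed the test in any comparison under any alternative, with the exception of late against early within HFC with array weights, where 3 members did (Dio2 at -2.16, Prdm16 at 1.41 and Ppargc1a at -1.84) among 6724 probes, or 21.6% of those tested. In that comparison the probes past the threshold were 0 in the main analysis, 40 with median scaling, 1 with quantile normalisation, 1 within 1 scan period and 0 to 775 with a time point left out, 775 being without week 0. Within 1 scan period, against 1 early array, Dio2 in LFC was at 0.75 and Ppargc1a at 1.76, and in HFC Prdm16 was at -0.06 and Ppargc1a at 1.14. Late against early within LFC gave 145 probes, 0 with normexp background correction, 79 with median scaling, 95 with quantile normalisation, 79 where only probes detected on every array were tested, 79 with outlier spots kept, 286 with array weights, 0 within 1 scan period and 51 to 212 with a time point left out. The change in the diet effect gave 3 probes with array weights and 2 without LFC week 3 and HFC week 12, and the mean of the doses 0 to 1 with a week left out, 1 being without week 3. The cause was not tested. HFC against LFC and each single dose gave 0 probes under all alternatives. The Ucp1 difference for HF20 lay between -2.59 and -1.13 over 17 alternatives, with adjusted p from 0.139 to 1.0.

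The arrays hold 1 sample per diet and time point, so no error here separates animals from time. Signals of Elovl3 and Zic1 on most arrays, and of Ucp1 on HF20 weeks 6 and 18, were not well above background. There the size of a difference depends on the background correction. The time difference of Dio2 in LFC also depended on it, at -1.42 and with normexp -0.04, though Dio2 was well above background on every LFC array. Without the time point block no member passed either.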

Other observations

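Slc27a2, a fatty acid transporter of the mitochondria and fuel supply list, had the largest difference of the 53 pathway genes late against early in HFC, at -3.13 (SE 1.1, limma adjusted p = 0.249), and was well above background on 31 of 39 arrays. It was named after its value was seen. Adrb3, the main beta-adrenergic receptor of adipocytes, read 5.65 and 5.88 on HF20 weeks 6 and 18, the arrays where Ucp1 was not well above background, within its range of -0.54 to 5.98 over 37 arrays.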
